A study of Mus musculus with 9 samples.

Results

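The genes described here are 10 components and inhibitors of insulin and mTOR signalling, as read by arrays of gastrocnemius muscle from outbred CD-1 mice that were young adults. The genes comprise the insulin receptor gene Insr, the docking proteins Irs1 and Irs2, the receptor restraint Grb10, the PI3K regulators Pik3r1 and Pik3ip1, the mTOR inhibitors Ddit4, Ddit4l and Deptor, and the translation repressor Eif4ebp1. Every probe set that the platform annotation lists to 1 of these symbols alone was taken, which gave 27 of 45037 probe sets that are not controls and 10 of 18193 genes. The testosterone group was castrated and at once received a testosterone pellet of 2.5 mg that releases over 60 days. The castration group was castrated and received a placebo pellet, and the sham group received a placebo pellet after a sham operation. All groups were killed unfasted at day 14, and each has 3 Affymetrix arrays, each loaded with RNA pooled from 3 animals, so 27 mice were measured and every SD below is a spread between pools. The labels name no allele or transgene, and a single pellet dose was used. Levels are log2 values made by the authors with RMA, which removes background, brings all arrays to 1 distribution and combines probes into a level per probe set.

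Insulin binding activates the receptor kinase, which phosphorylates the IRS docking proteins. These recruit PI3K, and PI3K activates AKT, which drives glucose uptake and, through the kinase complex mTORC1, protein synthesis. Each step has restraints, and phosphorylation, which carries most of this signalling, is not read by arrays. Skeletal muscle is a main site of insulin-stimulated glucose uptake, and mTORC1 is a main control point of its growth.

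Testosterone 2 and sham 2 were the arrays least like the others. Over all probe sets their mean correlations with the other arrays were 0.981 for testosterone 2 and 0.972 for sham 2, against 0.989 to 0.991 for the other 7 arrays. The muscle identity of the tissue was clear on every array: Acta1, skeletal actin, was at 14.17 to 14.24 and Ckm, muscle creatine kinase, at 13.96 to 14.03, while the liver gene Alb was at 2.96 to 3.24, near the array medians of 3.15 to 3.26. The mean log2 deviation of 9 measured adipocyte markers (of 12 listed) was 1.05 on testosterone 2, −0.60 to −0.58 on the castration arrays and 1.10 on sham 2. That of 19 measured macrophage and lymphocyte markers (of 20 listed) was 0.912 on testosterone 2 and 0.373 on sham 2, against −0.259 to −0.092 on the other 7. Members and lists whose values rest on these 2 arrays are given with and without them.

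With all arrays weighted equally none of the 10 genes passed the test between any 2 groups, and the values below describe levels whose differences fell short of it. With limma and Benjamini-Hochberg adjustment over all 18193 genes at a threshold of 0.05, 0 of 10 members passed in castration against sham and 0 in testosterone against castration, where 0% of all genes passed in either. At an unadjusted p under 0.05 the limma counts were 3 of 10, all higher after castration, against 3.09% of all genes in that direction, and 3 of 10, all lower with testosterone, against 1.84%. One-way analysis of variance without moderation also passed 0 members in both comparisons, against 0% of all genes, with 2 members at an unadjusted p under 0.05 in each. No share of all genes at that unadjusted level is given for this fit. With limma array weights 2 members passed in castration against sham, as given under Grb10 and Ddit4l, but 0 of 27 member probe sets did. In castration minus sham 8 of 10 members had a positive difference, all but Irs2 and Eif4ebp1, as did 52.9% of all genes. The median log2 difference of the members was 0.35, against 0.01 over all genes, and 0.16 without sham 2 and testosterone 2. Among genes with a mean level above 4.18, the medians were 0.33 for 9 members and 0.14 for all 7078 genes. For testosterone minus castration the members' median was −0.25, against −0.01 over all genes, and −0.10 without those 2 arrays. Over any group, by limma's F test, 0 of 10 members passed, against 0% of all genes, and 2 had an unadjusted p under 0.05, against 3.64%. Castration minus sham and testosterone minus castration use the same castration arrays, so opposite signs in them are not separate observations.

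**Figure D1:**
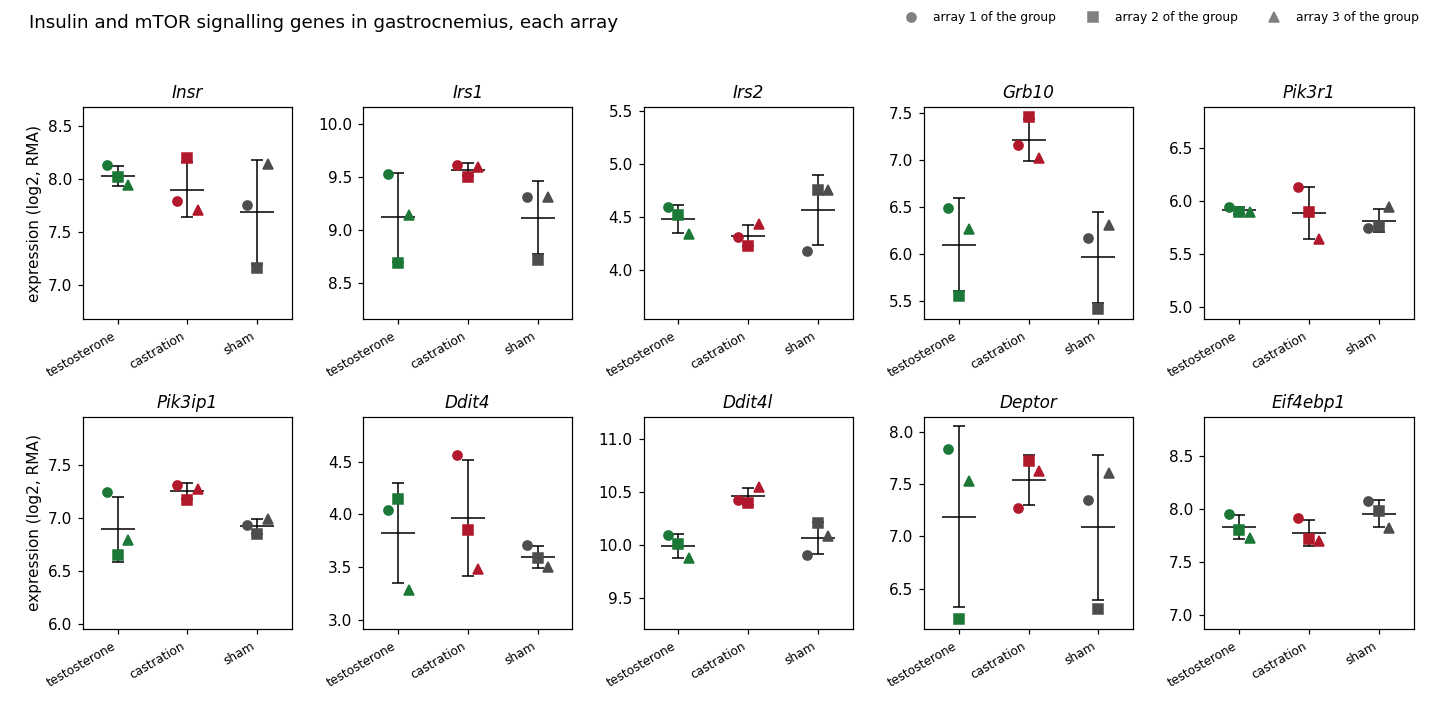
Log2 expression of the 10 genes at their brightest probe set, 1 panel per gene, with the groups in the order testosterone, castration and sham. Each point is an array, bars show the mean ± SD of 3 arrays, and each panel has its own vertical range of at least 2 log2 units. The 3 castration points lie above all sham points for Grb10, Irs1, Pik3ip1 and Ddit4l, and above all testosterone points for Grb10 and Ddit4l.

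The 3 castration arrays lay wholly above the 3 sham arrays for 4 of 10 members, Grb10, Irs1, Pik3ip1 and Ddit4l, whereas 5.17% of all genes showed that order. The testosterone arrays lay wholly below the castration arrays for 2 members, Grb10 and Ddit4l, against 4.79% of all genes. With sham 2 and testosterone 2 left out the counts stayed at 4 and 2 members, against 8.64% and 9.06% of all genes. Leaving out arrays cannot undo such an order, so these counts are no check on those members. Over probe sets, castration arrays lay wholly above sham arrays at 6 of 27, against 4.26% of all, and testosterone arrays wholly below castration arrays at 4 of 27, against 4.09%. No member separated testosterone from sham arrays in either direction, against 6.47% of all genes. These are bulk samples, in which fewer cells of a type and less RNA per cell cannot be told apart.

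Insr encodes the insulin receptor, the tyrosine kinase that starts the pathway (chromosome 8, 3150922 to 3279649 in GRCm38.p6). Its brightest probe set was at 8.13, 8.02 and 7.94 on the testosterone arrays, at 7.79, 8.19 and 7.71 on the castration arrays and at 7.76, 7.16 and 8.14 on the sham arrays. The groups overlapped, and sham 2 was the lowest of the 9 arrays. Castration minus sham was 0.21 (SE 0.23, 95% interval −0.32 to 0.74, adjusted p = 0.856) and −0.05 without sham 2. Testosterone minus castration was 0.13 (SE 0.23). The other 2 Insr probe sets lay between 3.07 and 3.46 on every array, close to the array medians.

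Irs1 and Irs2 encode the docking proteins that carry the signal from the receptor to PI3K. Irs1 has 1 probe set (gene at chromosome 1, 82233105 to 82291439), which was at 9.52, 8.69 and 9.14 on the testosterone arrays, at 9.61, 9.50 and 9.59 on the castration arrays and at 9.31, 8.72 and 9.31 on the sham arrays. The castration arrays formed a tight group, 9.57 ± 0.06 (SD, n = 3), above every sham array, and testosterone 1 lay within it. The testosterone mean was 9.12 ± 0.42 and the sham mean 9.11 ± 0.34. Castration minus sham was 0.45 (SE 0.22, adjusted p = 0.838) and testosterone minus castration −0.45 (SE 0.22, adjusted p = 1). Testosterone 2 and sham 2 were the lowest arrays. Without them the differences were 0.25 and −0.23.

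Irs2 also has 1 probe set (gene at chromosome 8, 10984681 to 11008929). It was at 4.59, 4.52 and 4.34 on the testosterone arrays, at 4.31, 4.23 and 4.43 on the castration arrays and at 4.18, 4.76 and 4.75 on the sham arrays. Its castration level was not above sham, and the groups overlapped: castration minus sham was −0.24 (SE 0.16, 95% interval −0.60 to 0.12, adjusted p = 0.838), and 0.06 with array weights. Testosterone minus castration was 0.16 (SE 0.16, adjusted p = 1).

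In mouse liver the Irs2 gene is known as a target of the FoxO factors, which insulin restrains and which bind sites such as TGTTTTG, and the E-box CACGTG is bound by basic helix-loop-helix factors. The 250 bases before the annotated starts of Irs1 and Irs2 are shown because both hold the 2 letter strings side by side. RefSeq promoter sequences (GRCm38.p6) were at hand for 7 of the 10 genes, in 9 promoters. Capitals mark CACGTG and TGTTTTG, searched on both strands together with the palindromic androgen response element and its left arm AGAACA. Both genes lie on the minus strand, and each sequence is written 5′ to 3′ in the direction of transcription.
Irs1 promoter, chr1:82291440-82291689: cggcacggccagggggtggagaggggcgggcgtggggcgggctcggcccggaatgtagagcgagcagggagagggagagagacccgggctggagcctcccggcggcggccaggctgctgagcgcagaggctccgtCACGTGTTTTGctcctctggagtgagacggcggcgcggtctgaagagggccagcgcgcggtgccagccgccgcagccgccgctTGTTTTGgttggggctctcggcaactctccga
Irs2 promoter, chr8:11008930-11009179: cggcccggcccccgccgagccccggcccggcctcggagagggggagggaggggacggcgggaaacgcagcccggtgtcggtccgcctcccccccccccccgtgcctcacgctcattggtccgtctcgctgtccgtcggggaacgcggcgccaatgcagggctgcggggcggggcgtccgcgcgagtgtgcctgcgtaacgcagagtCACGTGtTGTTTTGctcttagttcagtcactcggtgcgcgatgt
In Irs1, CACGTG began at position −115 from the annotated start and overlapped a TGTTTTG that began at −111, and another TGTTTTG began at −32. In Irs2, CACGTG began at −44 and TGTTTTG at −37. Over all 32851 promoters in the table, 6.02% held CACGTG, 5.56% held TGTTTTG and 0.295% held both. The full androgen response element was in 0.00913% of all promoters and the left arm in 16.1%, and neither was in a member's promoter window. These strings were chosen after the sequences had been seen, and a match or its absence is a description of letters.

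Grb10 encodes an adaptor that binds the activated insulin and IGF1 receptors and restrains them, and it is itself a substrate of mTORC1. It is an imprinted gene at chromosome 11, 11930499 to 12037428. The brightest Grb10 probe set was at 6.49, 5.55 and 6.26 on the testosterone arrays, at 7.15, 7.46 and 7.01 on the castration arrays and at 6.17, 5.41 and 6.31 on the sham arrays. Every castration array was above every array of the other groups, and testosterone and sham arrays overlapped.

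Grb10 averaged 7.21 ± 0.23 (SD, n = 3) after castration and 5.96 ± 0.48 in sham, a 2.37-fold higher level (log2 difference 1.25, SE 0.29, 95% interval 0.58 to 1.91, adjusted p = 0.667). With testosterone it averaged 6.10 ± 0.49, 2.16-fold below castration (log2 difference −1.11, SE 0.29, adjusted p = 0.751). These were the largest differences among the 10 members in each comparison. Testosterone minus sham was 0.14 (SE 0.29), with an interval of −0.53 to 0.80. Without sham 2 and testosterone 2 the castration difference was 0.97 (adjusted p = 0.112) and the testosterone difference −0.83 (adjusted p = 0.133). With limma array weights, which give less say to arrays that fit their group poorly, castration minus sham was 1.03 and passed (adjusted p = 0.0208), where 0.956% of all genes did. In that fit sham 1 had a weight of 4.61 and set most of the sham level, since sham 2 had 0.164 and sham 3 had 0.644. Over all 22 alternatives its adjusted p in this comparison was between 0.0208 and 0.999. In the weighted limma fit over all probe sets the brightest Grb10 probe set did not pass (adjusted p = 0.144). There 0 of 27 member probe sets passed in castration against sham, against 0.0711% of all.

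Of 3 Grb10 probe sets, this order of arrays was seen at the brightest. The others were at 2.84 to 3.13 and at 3.25 to 3.84 on all 9 arrays, near the array medians, and their castration minus sham differences were −0.04 (SE 0.09) and −0.15 (SE 0.15). Averaged over its 3 probe sets, the gene differed by 0.35 (SE 0.11). The RefSeq promoter at the gene's far 5′ start is shown because Grb10 had the largest difference, and it held none of the strings searched.
Grb10 promoter, minus strand, chr11:12037421-12037670: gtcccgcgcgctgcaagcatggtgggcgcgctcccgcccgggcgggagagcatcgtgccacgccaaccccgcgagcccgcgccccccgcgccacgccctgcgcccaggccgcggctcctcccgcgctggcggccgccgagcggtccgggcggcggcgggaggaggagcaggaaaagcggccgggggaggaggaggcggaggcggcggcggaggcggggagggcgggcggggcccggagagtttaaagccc

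Fibroblast and matrix markers and endothelial markers also averaged highest on castration arrays, with overlap between castration and sham. The other 2 classes went the other way: 9 of 9 adipocyte markers were lower after castration than in sham (median −0.64). So were 16 of 19 macrophage and lymphocyte markers (median −0.19), while 47.1% of all genes were lower. The mean deviation of 13 measured fibroblast and matrix markers (of 14 listed) was −0.13, −0.39 and −0.30 on the testosterone arrays, 0.30, 0.48 and 0.16 on the castration arrays and 0.20, −0.56 and 0.24 on the sham arrays. The list's members with the smallest p over the 3 groups were Col14a1, Col3a1 and Sparc, with castration minus sham differences of 0.85, 0.21 and 0.21 and testosterone minus castration differences of −0.85, −0.57 and −0.66, none passing. In testosterone minus castration 12 of the 13 matrix markers were lower, against 51.7% of all genes. Of these 8 had an unadjusted p under 0.05 with limma, against 1.84% of all genes, and 0 passed. There 1 of them, the collagen gene Col1a1, passed with array weights or without sham 2 and testosterone 2, where 0.324% and 0.148% of all genes did. In castration minus sham 12 of 13 were higher with a median of 0.22, while 52.9% of all genes were higher. Without those 2 arrays 8 of 13 were, with a median of 0.032. The mean deviation of 14 endothelial markers was 0.062, −0.148 and −0.086 on the testosterone arrays, 0.263, 0.128 and 0.041 on the castration arrays and 0.057, −0.328 and 0.01 on the sham arrays. Of these 12 were higher after castration than in sham (median 0.22), and 9 without those 2 arrays (median 0.11), none passing. The 3 genes whose levels over the 9 arrays were most like those of Grb10 were Cpxm2, Egflam and Suclg2, with Pearson correlations of 0.986, 0.984 and 0.980. Egflam encodes an extracellular matrix protein and Suclg2 a subunit of a mitochondrial enzyme of the citric acid cycle. These points share the group differences and the low arrays sham 2 and testosterone 2, so the correlations are a description. Grb10 was lowest on testosterone 2 and sham 2, the arrays with the highest adipocyte and immune markers. The part of matrix, endothelial, immune or fat cells in the Grb10 result was not tested.

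**Figure D2:**
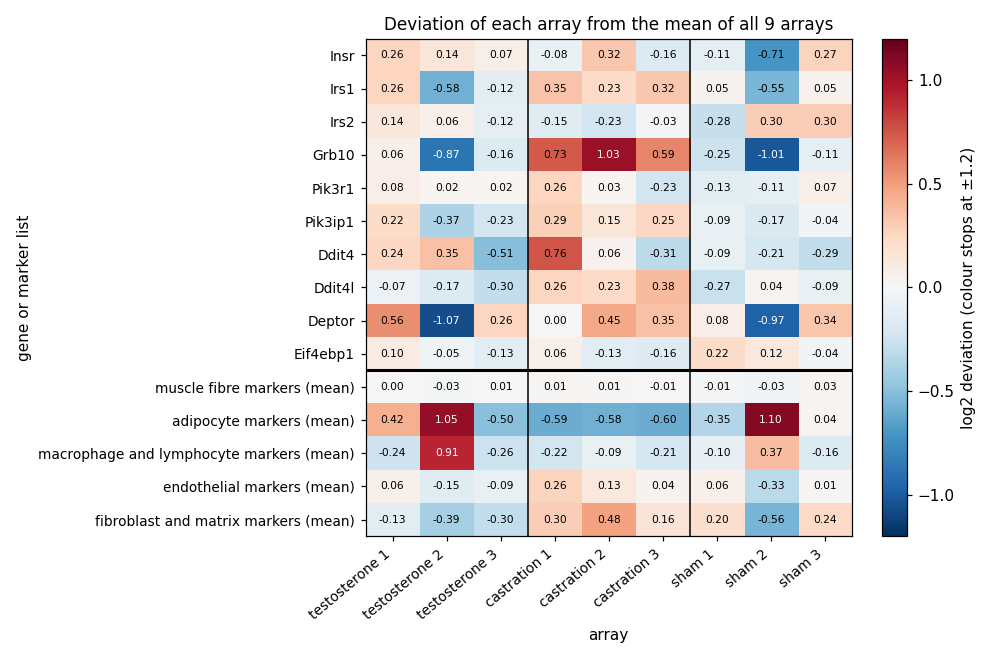
Log2 deviation of each array from the mean of all 9 arrays, for the 10 genes (upper rows) and for the mean of 5 lists of cell type markers (lower rows), with arrays in columns by group. Grb10, Irs1 and Deptor are low on testosterone 2 and sham 2, where the adipocyte markers are at 1.05 and 1.10. Grb10 and the matrix markers are both above 0 on the 3 castration arrays, as are the endothelial markers. On sham 1 and sham 3 Grb10 is at −0.25 and −0.11 and the matrix markers are at 0.20 and 0.24.

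Pik3r1 and Pik3ip1 act on PI3K itself. Pik3r1 (chromosome 13, 101680761 to 101768217) encodes the p85α family of regulatory subunits, which stabilise and hold back the catalytic subunit until they bind IRS proteins. The brightest Pik3r1 probe set was at 5.94, 5.89 and 5.89 on the testosterone arrays, at 6.12, 5.90 and 5.64 on the castration arrays and at 5.74, 5.76 and 5.94 on the sham arrays. The groups overlapped and their means were within 0.10 of each other. Castration minus sham was 0.07 (SE 0.12, 95% interval −0.21 to 0.36), and testosterone minus castration 0.02 (SE 0.12, interval −0.26 to 0.30). No end of those intervals was beyond 0.36 from 0. The other 3 Pik3r1 probe sets were at 2.88 to 3.91.

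Pik3ip1 (chromosome 11, 3319241 to 3342971) encodes a membrane protein that binds the PI3K catalytic subunit and inhibits it. Its brightest probe set was at 7.24, 6.65 and 6.79 on the testosterone arrays, at 7.31, 7.17 and 7.27 on the castration arrays and at 6.93, 6.84 and 6.98 on the sham arrays. Castration arrays were above all sham arrays, and testosterone 1 lay among the castration arrays. The castration mean was 1.26-fold above sham (log2 difference 0.33, SE 0.14, 95% interval 0.00499 to 0.66, adjusted p = 0.838). Testosterone was lower than castration by a log2 difference of −0.36 (SE 0.14, adjusted p = 1). The second probe set was at 5.22, 4.23 and 4.49 on the testosterone arrays, at 5.40, 4.82 and 5.26 on the castration arrays and at 5.19, 4.46 and 4.31 on the sham arrays. Its differences had the same signs, 0.50 (SE 0.31) and −0.51 (SE 0.31), and its groups overlapped. Without sham 2 and testosterone 2 the differences at the brightest probe set were 0.29 and −0.24. Another quantile normalisation lowered castration minus sham to 0.15, the lowest value over the 22 alternatives. Leaving out testosterone 1 alone moved testosterone minus castration to −0.53, with an adjusted p of 0.335.

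Ddit4 and its relative Ddit4l encode REDD1 and REDD2, which inhibit mTORC1 through the TSC complex. Ddit4 (chromosome 10, 59949675 to 59951770) is known to be induced by hypoxia, energy stress and glucocorticoids. It has 1 probe set, which was at 4.04, 4.15 and 3.29 on the testosterone arrays, at 4.56, 3.85 and 3.49 on the castration arrays and at 3.71, 3.59 and 3.50 on the sham arrays. These levels were near the array medians, and the groups overlapped. Castration minus sham was 0.36 (SE 0.29, 95% interval −0.30 to 1.03, adjusted p = 0.838) and testosterone minus castration −0.14 (SE 0.29, interval −0.81 to 0.53). Castration 1 decided the first value, which was 0.07 without that array, and the second then turned to 0.16.

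Ddit4l (chromosome 3, 137623672 to 137628332) is the form known for its expression in skeletal muscle. Its brightest probe set was at 10.10, 10.01 and 9.87 on the testosterone arrays, at 10.43, 10.40 and 10.55 on the castration arrays and at 9.91, 10.21 and 10.08 on the sham arrays. The castration arrays lay above all other arrays, while testosterone and sham arrays overlapped. Ddit4l averaged 10.46 ± 0.08 (SD, n = 3) after castration and 10.07 ± 0.15 in sham, a 1.31-fold higher level (log2 difference 0.39, SE 0.10, 95% interval 0.16 to 0.63, adjusted p = 0.787). With testosterone it averaged 9.99 ± 0.11, and testosterone minus castration was −0.47 (SE 0.10, interval −0.70 to −0.23, adjusted p = 0.497), the smallest adjusted p of any member in the 3 comparisons between groups. Testosterone minus sham was −0.07 (SE 0.10, interval −0.31 to 0.16).

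All 3 probe sets of Ddit4l showed the same order. The second probe set was at 10.10, 9.40 and 9.74 on the testosterone arrays, at 10.28, 10.52 and 10.44 on the castration arrays and at 9.78, 9.87 and 10.22 on the sham arrays. The third was at 9.91, 9.38 and 9.75 on the testosterone arrays, at 10.15, 10.48 and 10.47 on the castration arrays and at 9.71, 10.005 and 10.12 on the sham arrays. At all 3 the castration arrays lay above every other array. In a fit over all 45037 probe sets their castration minus sham differences were 0.46, 0.42 and 0.39 and their testosterone minus castration differences −0.66, −0.68 and −0.47, none passing, as for 0% of all probe sets. The 3 probe sets read the same RNA pools and are not replicates.

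The Ddit4l differences at the brightest probe set were at least as large without sham 2 and testosterone 2, at 0.47 and −0.47. At the second probe set they were 0.41 and −0.49 without those arrays, against 0.46 and −0.66 with all arrays. At the third they were 0.45 and −0.53, against 0.42 and −0.68. At the brightest probe set castration minus sham with limma array weights was 0.52 and passed (adjusted p = 0.0178). Over the 22 alternatives the adjusted p of this comparison was between 0.0178 and 0.999. In that weighted fit sham 1, the lowest sham array at this probe set, had a weight of 4.61. Without sham 1 and without weights the difference was 0.31. In the weighted limma fit over all probe sets this probe set did not pass (adjusted p = 0.108), where 0.0711% of all did. Testosterone minus castration did not pass with weights (adjusted p = 0.0977). The genes whose levels were most like those of Ddit4l over the 9 arrays were Mybph, Gprc5c and Actc1, with Pearson correlations of 0.963, 0.947 and 0.942. Mybph encodes a myosin-binding protein and Actc1 cardiac actin, both genes of the sarcomere. As for Grb10, these points share the group differences, so the correlations are a description. The promoter is shown because Ddit4l was the member with the smallest p over the 3 groups, and it held none of the strings searched.
Ddit4l promoter, plus strand, chr3:137623422-137623671: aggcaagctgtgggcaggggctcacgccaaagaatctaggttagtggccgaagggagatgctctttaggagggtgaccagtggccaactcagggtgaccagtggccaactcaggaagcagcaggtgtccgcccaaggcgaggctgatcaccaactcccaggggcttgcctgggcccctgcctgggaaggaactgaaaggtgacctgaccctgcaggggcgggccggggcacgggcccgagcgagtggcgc

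**Figure D3:**
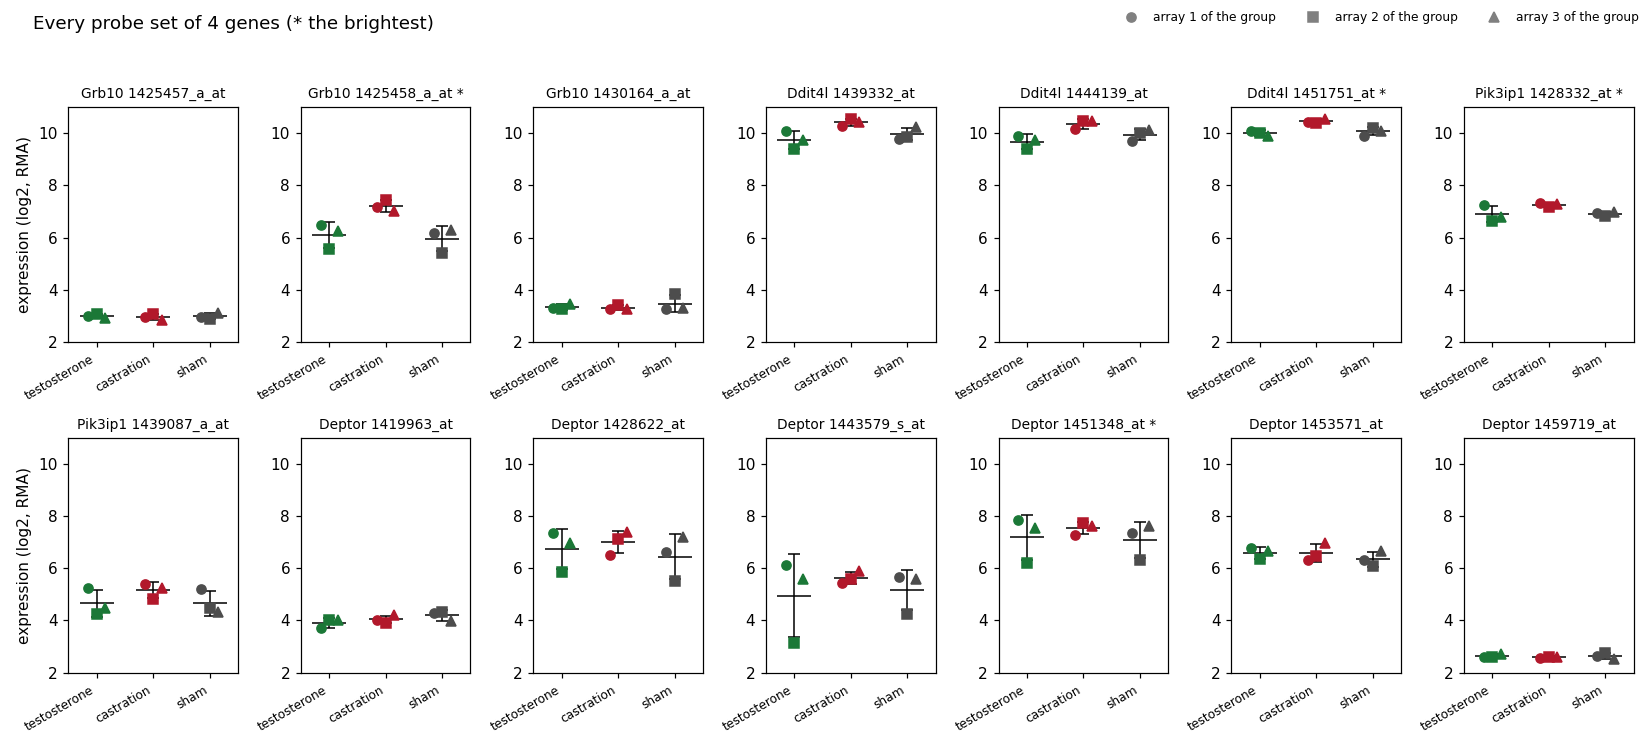
Log2 expression at every probe set of Grb10, Ddit4l, Pik3ip1 and Deptor, with the groups in the order testosterone, castration and sham and a common vertical axis from 2 to 11. Points are arrays, bars the mean ± SD of 3 arrays, and an asterisk marks the brightest probe set of a gene. The 3 Ddit4l probe sets share 1 order, whereas 2 of the 3 Grb10 probe sets are flat near 3.

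Deptor encodes a protein that binds mTOR and inhibits both of its complexes (chromosome 15, 55112317 to 55259273). Its brightest probe set was at 7.83, 6.21 and 7.53 on the testosterone arrays, at 7.27, 7.73 and 7.63 on the castration arrays and at 7.35, 6.30 and 7.61 on the sham arrays. Testosterone 2 and sham 2 were the lowest arrays, and the groups overlapped. Castration minus sham was 0.45 (SE 0.45, 95% interval −0.57 to 1.48, adjusted p = 0.85) and testosterone minus castration −0.35 (SE 0.45, interval −1.38 to 0.68). Without those 2 arrays the differences were 0.06 (SE 0.16) and 0.14 (SE 0.16), so the second turned its sign.

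Of the 6 Deptor probe sets, 3 had testosterone 2 and sham 2 as their lowest arrays, and the other 3 did not. At the one next in brightness the testosterone arrays were at 7.36, 5.87 and 6.96, the castration arrays at 6.52, 7.12 and 7.37 and the sham arrays at 6.64, 5.501 and 7.19. At a fainter one testosterone 2 was at 3.15 and sham 2 at 4.26, against 5.45 to 6.14 on the other 7 arrays. Another probe set was at 6.77, 6.34 and 6.65 on the testosterone arrays, at 6.31, 6.48 and 6.98 on the castration arrays and at 6.297, 6.07 and 6.66 on the sham arrays. There sham 2 was the lowest array, while testosterone 2 lay above castration 1 and sham 1. The remaining 2 were dim, at 3.70 to 4.34 and at 2.52 to 2.76, with sham 2 the highest array at both, and their castration minus sham differences were −0.15 (SE 0.13) and −0.05 (SE 0.08). On testosterone 2 and sham 2 Adipoq, an adipocyte hormone gene, was at 9.21 and 9.16. Testosterone 1 and sham 3 had Adipoq at 8.47 and 8.26 and Deptor at its brightest probe set at 7.83, the highest of the 9 arrays, and 7.61. The part of fat or immune cells in the 2 low values was not tested.

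Eif4ebp1 encodes 4E-BP1, which holds the cap-binding protein eIF4E until mTORC1 phosphorylates it (chromosome 8, 27260327 to 27275656). The brightest Eif4ebp1 probe set was at 7.95, 7.80 and 7.73 on the testosterone arrays, at 7.92, 7.72 and 7.69 on the castration arrays and at 8.07, 7.98 and 7.82 on the sham arrays. The groups overlapped in a narrow range. Castration minus sham was −0.18 (SE 0.10, 95% interval −0.42 to 0.06, adjusted p = 0.838) and testosterone minus castration 0.05 (SE 0.10, interval −0.19 to 0.29). The second probe set, whose design allows cross-hybridisation, ran from 7.53 to 8.24 and differed by −0.06 (SE 0.18) and 0.17 (SE 0.18). The third was at 3.25 to 3.67.

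**Figure D4:**
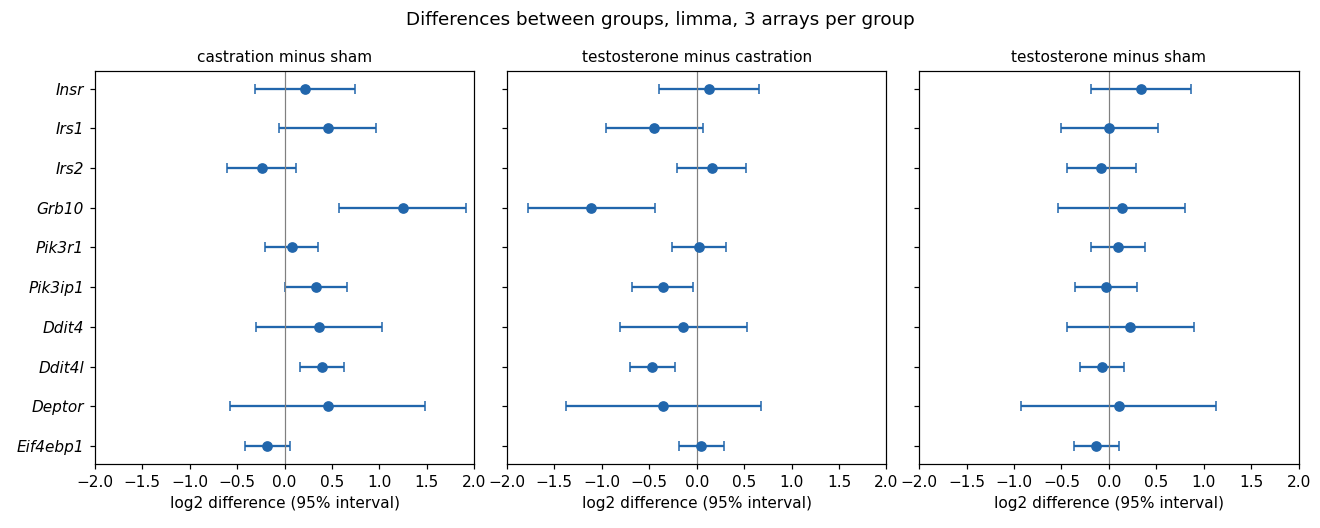
Log2 differences of the 10 genes in castration minus sham, testosterone minus castration and testosterone minus sham, with 95% intervals from limma on 3 arrays per group. Intervals of Grb10, Pik3ip1 and Ddit4l lie to the right of 0 in the first panel and to the left of it in the second, and all 10 intervals of the third panel span 0, without adjustment for the number of genes.

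Testosterone against sham asked whether the replaced animals matched intact ones. Here 0 of 10 members passed, against 0% of all genes, and 0 had an unadjusted p under 0.05, against 4.35%. The members' median was 0.05 and that of all genes 0.01. Insr had the largest difference, 0.34 (SE 0.23, interval −0.18 to 0.87, adjusted p = 0.78). It was 0.08 without sham 2. The interval was −0.31 to 0.16 for Ddit4l, −0.37 to 0.11 for Eif4ebp1 and −0.93 to 1.13 for Deptor. A p that misses the threshold does not show equal levels.

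Castration was also set against the mean of testosterone and sham, a comparison added after the data had been seen that uses the castration arrays of both comparisons above. Of all genes 0.0550% passed and of the members 0 of 10. At an unadjusted p under 0.05 there were 4 of 10 members, all higher, against 2.58% of all genes. Ddit4l was higher after castration by 0.43 (SE 0.09, adjusted p = 0.297), Grb10 by 1.18 (SE 0.25, adjusted p = 0.331), Pik3ip1 by 0.35 (SE 0.12) and Irs1 by 0.45 (SE 0.19). The arrays of castration lay above all 6 others for 2 members, Grb10 and Ddit4l, against 1.88% of all genes. Without sham 2 and testosterone 2 Grb10 passed at a difference of 0.90 (adjusted p = 0.0424), where 0.28% of all genes did, and Ddit4l did not, at 0.47 (adjusted p = 0.127).

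The rest of the pathway was read from 10 lists of 151 distinct genes, of which 139 were measured. With limma 0 passed in castration against sham, where 23 had an unadjusted p under 0.05, against 4.72% of all genes, and 0 in testosterone against castration, where 21 did, against 3.48%. In all, 90 of 139 were higher and 49 lower after castration than in sham, with a median of 0.12, while 52.9% of all genes were higher. The counts without sham 2 and testosterone 2 were 72 and 67 with a median of 0.0078, so the tilt rested on sham 2. In testosterone minus sham 98 of 139 were higher (median 0.081), against 52.1% of all genes, and 81 without those 2 arrays. In testosterone minus castration 61 of the 139 were higher and 78 lower (median −0.04). Over the 7078 genes with a mean level above 4.18, the median was 0.14 in castration minus sham and 0.13 in testosterone minus sham. With array weights 9 of the 139 passed in castration against sham, where 0.956% of all genes did: Tbc1d4, Prkag3, Sesn1, Klf15, Ctsl and the ATF4 target Chac1 higher, and Tbc1d1, Vldlr and Fkbp5 lower. In testosterone against castration 4 passed with weights, where 0.324% of all genes did, Sesn1 and Ctsl lower and Mthfd2 and Fkbp5 higher. The list of other insulin receptor restraints, which holds Grb14, Socs1, Socs3 and Ptpn1, had 5 of 12 measured members above sham after castration (median −0.02), and 3 of 12 without sham 2 and testosterone 2 (median −0.084). Ptpn1, a phosphatase of the insulin receptor, differed by −0.25 (SE 0.31) in castration minus sham and by 0.86 (SE 0.31, adjusted p = 1) in testosterone minus castration, and by −0.52 and 0.56 without those 2 arrays. The receptor adaptors had 7 of 10 higher (median 0.15), and 6 of 10 without the 2 arrays (median 0.016). The differences were 0.58 for Sos1, a Ras exchange factor, and 0.34 for the ubiquitin ligase Cbl, against 0.27 and 0.22 without sham 2. The adaptor Shc1 differed by −0.36, and by −0.93 (SE 0.28) in testosterone minus sham. Without sham 2 these values were −0.025 and −0.59.

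In the PI3K and AKT core list 12 of 17 measured genes were above sham after castration (median 0.17), against 52.9% of all genes. Without sham 2 and testosterone 2, 10 of 17 were (median 0.08). Tbc1d4 and Tbc1d1 encode related proteins that hold glucose transporter vesicles inside the cell until AKT or AMPK phosphorylates them, and their differences had opposite signs. Tbc1d4 was at 6.56, 5.84 and 6.20 on the testosterone arrays, at 7.42, 7.36 and 6.998 on the castration arrays and at 6.34, 5.48 and 5.92 on the sham arrays. Tbc1d1 was at 6.21, 6.71 and 6.55 on the testosterone arrays, at 5.79, 5.92 and 5.85 on the castration arrays and at 6.86, 6.01 and 6.58 on the sham arrays. Castration arrays were the highest 3 for Tbc1d4 and the lowest 3 for Tbc1d1. Sham 2 and testosterone 2 were the lowest arrays for Tbc1d4, so the size of its differences rests in part on them. The log2 differences in castration minus sham were 1.35 (SE 0.25, adjusted p = 0.419) for Tbc1d4 and −0.63 (SE 0.21, adjusted p = 0.838) for Tbc1d1, and in testosterone minus castration −1.06 (SE 0.25, adjusted p = 0.564) and 0.63 (SE 0.21, adjusted p = 1).

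The PI3K and AKT restraints had 6 of 9 measured genes higher after castration (median 0.09) and 8 of 9 lower with testosterone than after castration (median −0.18). The counts without sham 2 and testosterone 2 were 7 higher (median 0.13) and 7 lower (median −0.06). Inppl1 and Inpp5k, phosphatases of the PI3K product, differed by 0.35 (SE 0.16) and 0.51 (SE 0.25) in castration minus sham, and by 0.23 and 0.22 without sham 2. The other mTOR restraints had 16 of 20 higher after castration (median 0.19) and 11 of 20 lower with testosterone (median −0.06). Over all genes 52.9% were higher and 51.7% lower in these comparisons. Without sham 2 and testosterone 2, 16 of the 20 restraints were higher with a median of 0.063, and 14 lower with a median of −0.06. Sesn1, which restrains mTORC1 when amino acids are scarce, was at 6.60, 6.48 and 5.90 on the testosterone arrays, at 7.73, 7.84 and 7.47 on the castration arrays and at 5.99, 6.48 and 6.52 on the sham arrays. Its castration arrays lay above all others, with differences of 1.35 (SE 0.21, adjusted p = 0.271) in castration minus sham and −1.35 (SE 0.21, adjusted p = 0.132) in testosterone minus castration. The AMPK subunit Prkag3 differed by 0.47 (SE 0.14) and −0.38 (SE 0.14) in the same order. The mTOR complexes and activators had 11 of 15 higher after castration with a median of 0.05, and 3 of 15 without the 2 arrays (median −0.06). Mtor itself differed by −0.11 (SE 0.11), and by −0.19 without sham 2. Of the translation targets 6 of 11 were higher (median 0.19), and 5 without the 2 arrays (median −0.02), with Eef2k, the kinase that inhibits elongation factor 2, at −0.10 (SE 0.20) in castration minus sham, −0.31 without sham 2, and 0.58 (SE 0.20) in testosterone minus castration.

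Lists of genes that known regulators of the members also control gave mixed counts. In castration minus sham 52.9% of all genes were higher, and the median over genes with a mean level above 4.18 was 0.14. FoxO targets had 11 of 15 higher after castration (median 0.21), and 9 without sham 2 and testosterone 2 (median 0.14). In this list Ctsl, cathepsin L, differed by 0.94 (SE 0.19), Klf15, a transcription factor of muscle amino acid breakdown, by 0.49 (SE 0.15), and Fbxo32, the ubiquitin ligase atrogin-1, by −0.16 (SE 0.15), or −0.089 without sham 2. ATF4 targets, the stress-induced group to which Eif4ebp1 and Ddit4 are often assigned, had 8 of 20 higher (median −0.04), with the same count without the 2 arrays (median −0.03). Its member Vldlr, a lipoprotein receptor, differed by −0.71 (SE 0.19) and 0.98 (SE 0.19) in the 2 comparisons. Mthfd2, of mitochondrial folate metabolism, differed by −0.16 (SE 0.12) and 0.62 (SE 0.12), the first being −0.26 without sham 2. The glucocorticoid response list had 11 of 15 higher after castration (median 0.19), and 8 of 15 without the 2 arrays (median 0.035). Its member with the smallest p, Fkbp5, differed by −1.15 (SE 0.18, adjusted p = 0.271), with 1.46 (SE 0.18, adjusted p = 0.061) in testosterone minus castration. Fkbp5, a steroid-receptor chaperone gene, was the 1 gene of the 139 that passed in castration against the mean of both other groups, where it was lower by a log2 difference of −1.30 (SE 0.16, adjusted p = 0.0432). In that comparison 0 of all genes passed with median centring, a replicate block or analysis of variance without moderation, and likewise without testosterone 1, testosterone 3, sham 3 or any 1 castration array. Zbtb16, another steroid-induced gene, had differences of −0.59 (SE 0.29) and 1.15 (SE 0.29).

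**Figure D5:**
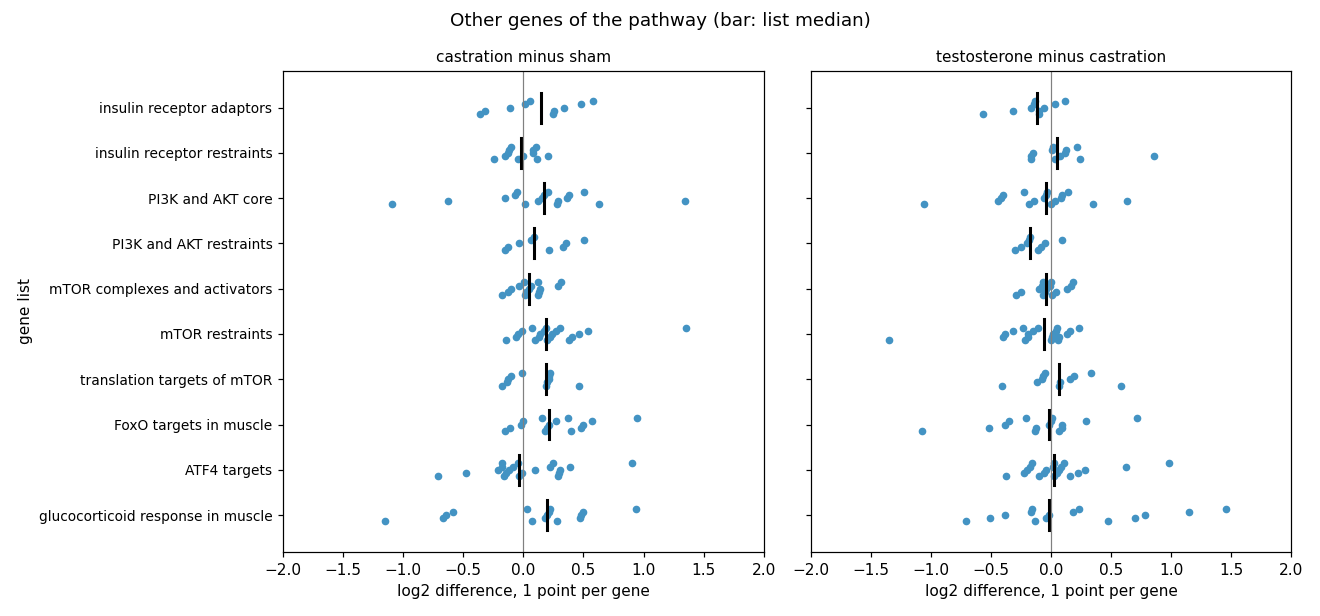
Log2 differences of the genes in 10 lists of the pathway and its regulators, in castration minus sham (left) and testosterone minus castration (right), 1 point per gene and a bar at each list's median. List medians run from −0.04 to 0.21 on the left, and from −0.084 to 0.14 without sham 2 and testosterone 2, which are included here. With those 2 arrays included, single genes such as Tbc1d4 and Sesn1 lie beyond 1 on the left and below −1 on the right. For Tbc1d4 they are the lowest arrays.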

How the data were processed

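RNA from gastrocnemius was hybridised to 9 Affymetrix arrays, 3 per group, each a pool of 3 animals. The deposited table holds log2 values that the authors made with RMA, per the submitters' processing notes. For RMA the sources used here give no version. The method makes the arrays' distributions alike, so a change shared by most genes would not be seen, and differences of dim probe sets are compressed. Pooling hides the spread between animals, and 3 pools per group limit the precision.

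Of 45101 probe sets, 64 controls were left out. The platform annotation lists 34945 to 1 gene, 932 to several and 9160 to none, and 204 gene identifiers were not found in the gene table. For each of 18193 genes the probe set of highest mean was used, among those listed to that gene alone. limma 3.58.1 in R 4.3.3 was fitted to all 9 arrays with group as the only term, with moderated two-sided tests and Benjamini-Hochberg adjustment over all genes at 0.05. All 27 member probe sets were also tested in a fit over 45037 probe sets. The fit was also run on simulated data with known changes. There a gene's noise was equal on all 9 arrays, unlike the arrays here, so that run is no check on unequal arrays. No filter on low values was used in the reported fit.

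All 10 members were named with every probe set. From each other list, genes passing and up to 3 genes with the smallest F test p were named. For the 2 members with the smallest F test p, the 3 most correlated genes were named. Other genes were chosen after their values were seen. The members, lists and tests were chosen with earlier results of these data known. There were 22 alternatives. The labels call the arrays of a group biological replicates, and the tests set a group difference against the spread between pools. Same-numbered arrays correlated between −0.489 and 0.268 in their deviations from the group means, so the numbers were not treated as pairs.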

Additional observations from a re-analysis of the deposited data

How the results depend on the processing

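The members passing changed from 0 under a few settings. With array weights 2 members passed in castration against sham, but 0 of 27 member probe sets, against 0.0711% of all probe sets. With weights 2 members passed over any group, and in castration against the mean of testosterone and sham 2 members and 1 probe set passed. Without sham 2 and testosterone 2, 1 member passed in that last comparison. Over all genes the settings gave at most 174 passing in castration against sham, 59 in testosterone against castration and 99 over any group, all with array weights and against 0 each in the reported fit. In castration against the mean of both others array weights gave 135, against 10, and the lowest count was 0. In testosterone against sham the highest count was 1. In the fits with array numbers as a replicate block 0 members passed in each comparison, against 0% of all genes. Of 219 single values per comparison, 212 kept direction and call in castration minus sham, 211 in testosterone minus castration and 196 in testosterone minus sham. In castration minus sham the sign turned for Irs2 with array weights (0.0572), Insr without sham 2 and testosterone 2 (−0.0501) and Pik3r1 after another quantile normalisation (−0.12). In testosterone minus castration it turned for Pik3r1 with the mean of probe sets (−0.0435) and array weights (−0.0275), and for Deptor without those 2 arrays (0.14). In testosterone minus sham another quantile normalisation gave −0.0551 for Grb10, −0.0807 for Irs1, −0.102 for Pik3r1 and −0.0866 for Deptor. Array weights gave −0.0667 for Irs1, 0.199 for Irs2, 0.0105 for Pik3ip1 and 0.0443 for Ddit4l, and Pik3ip1 was 0.00472 with median centring and 0.0556 without sham 2 and testosterone 2. Leaving out 1 array at a time gave ranges that crossed 0. In castration minus sham they were −0.0501 to 0.44 for Insr and −0.0452 to 0.20 for Pik3r1. In testosterone minus castration they were −0.10 to 0.14 for Pik3r1, −0.38 to 0.16 for Ddit4, −0.67 to 0.14 for Deptor and −0.0122 to 0.12 for Eif4ebp1. In testosterone minus sham they were −0.14 to 0.41 for Grb10, −0.20 to 0.22 for Irs1, −0.27 to 0.0153 for Irs2, −0.20 to 0.0929 for Pik3ip1 and −0.29 to 0.59 for Deptor. The causes were not tested. Ddit4 was removed by the filter on dim probe sets.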

Other observations

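In testosterone minus sham, 14 of 15 measured glucocorticoid response genes had a positive difference (median 0.26, against 0.01 over all genes), while 52.1% of all genes did, and none passed. The median over the 7078 genes with a mean level above 4.18 was 0.13. Without sham 2 and testosterone 2 the count was 10 of 15, with a median of 0.062. Fbxo32, an atrophy-linked ubiquitin ligase, was at 11.12, 10.79 and 10.62 on the testosterone arrays, at 10.23, 10.01 and 10.15 on the castration arrays and at 10.39, 10.42 and 10.05 on the sham arrays. The testosterone arrays were the highest 3, with a log2 difference from castration of 0.71 (SE 0.15, adjusted p = 0.457, limma).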
